A study of Mus musculus with 4 samples.

Results

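The 10 genes described here form the core of the circadian clock and its nearest output: the activators Arntl (also called Bmal1) and Clock, the repressors Per1, Per2, Per3, Cry1 and Cry2, the nuclear receptors Nr1d1 and Nr1d2 (REV-ERB alpha and beta), and the output factor Dbp. They were chosen by symbol, as a fixed list and not by a cutoff on their values, although earlier results of these data were known, and each was found in exactly 1 row of both deposited tables, which hold 22440 and 11708 gene rows. Transcripts of polyadenylated RNA were measured in 4 libraries of MMTV-Myc cells, which are mouse mammary tumour cells. Their Myc transgene is driven by the mouse mammary tumour virus promoter, which is active in mammary epithelium. The first table holds bulk cells (day 0), labelled wild type and grown with serum and insulin, and mammosphere cells (day 20), labelled wild type and kept as floating spheres in one of a pair of base media with EGF, bFGF and a Gem21 supplement. The second table holds cells with a control hairpin (labelled wild type, shLuc in one label and shScr in another) and cells with a hairpin against Cbx8 (sh68), a chromodomain subunit of Polycomb repressive complex 1. The protocol describes lentiviral (pLKO.1) infection with Cbx8 hairpins and growth under puromycin, without separate words on the control, and 1 hairpin stands for the knockdown. Whether the hairpin cultures were attached or floating was not given in the sources used here. Each group was 1 library, so every difference below compares 2 libraries, has no spread between replicates to be set against and carries no test of this report. Whether the cultures were synchronised, and when in a daily cycle they were harvested, was not given in the sources used here.

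In the clock, ARNTL and CLOCK bind DNA as a pair at E-box sequences and switch on the Per, Cry, Nr1d and Dbp genes. PER and CRY proteins then return to the nucleus and inhibit that pair, while the REV-ERB receptors repress Arntl through ROR elements, so that Arntl transcripts run opposite in phase to those of Nr1d1 and Dbp. DBP in turn acts at D-boxes. Per1 and Per2 also respond directly to outside signals, serum and cAMP among them, much as immediate early genes do. Such clocks run in mammary tissue and in many cultured cells, each cell keeping its own phase unless a signal aligns them.

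The letters that this loop reads are shown for the 5 members whose promoters hold them. The 250 bases before each start site in RefSeq's promoter table (GRCm38.p6, a newer build than the mm9 of the deposited tables) were searched on both strands for the E-box CACGTG, the E'-box CACGTT, the D-box TTANGTAA, a ROR element as TAGGTCA and the cAMP response element (CRE) TGACGTCA, none of which contains another. The table matched 9 of the 10 genes, Per2 being the one without an entry. The E-box was in 6.02% of all 32851 promoters and in those of Per1 and Cry1. The E'-box was in 3.85% of all promoters and in those of Cry1, Cry2 and Nr1d1, and the D-box was in 2.06% and, 2 times, in that of Per3. No match to the ROR element (2.23% of promoters) or the CRE (1.55%) was found in the members' windows, which says only that these letters are not in those 250 bases. Each sequence below runs 5′ to 3′ on the gene's strand and capitals mark the match, with AACGTG being the E'-box on the opposite strand. The positions are chr11:69098743-69098828 (plus strand) for the first of the 2 Per1 start sites, chr11:98775378-98775445 (minus) for Nr1d1, chr10:85185069-85185173 (minus) for Cry1, chr2:92434190-92434275 (minus) for Cry2 and chr4:151044776-151044910 (minus) for Per3.
Per1: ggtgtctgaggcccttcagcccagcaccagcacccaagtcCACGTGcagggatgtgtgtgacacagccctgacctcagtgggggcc
Nr1d1: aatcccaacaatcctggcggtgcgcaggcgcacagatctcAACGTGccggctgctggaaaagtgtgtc
Cry1: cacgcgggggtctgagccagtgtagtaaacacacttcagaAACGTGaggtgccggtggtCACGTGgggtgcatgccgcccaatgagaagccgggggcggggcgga
Cry2: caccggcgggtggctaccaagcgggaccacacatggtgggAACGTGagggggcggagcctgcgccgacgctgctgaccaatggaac
Per3: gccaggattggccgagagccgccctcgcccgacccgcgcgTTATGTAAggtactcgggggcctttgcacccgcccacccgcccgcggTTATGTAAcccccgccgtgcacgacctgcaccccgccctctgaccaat
The first match begins 166 bases before the start of Per1, 28 before that of Nr1d1, 79 before that of Cry1, 166 before that of Cry2 and 205 before that of Per3. A match is a description of the sequence and not a measured binding site.

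Levels are given in FPKM, which corrects fragment numbers for transcript length and for the size of the library. Fold changes are log2((FPKM + 1)/(FPKM + 1)), in which the added 1 FPKM shrinks the differences of weakly expressed genes. A gene was counted as lower or higher at 2-fold or more on that scale, among rows with at least 1 FPKM in either library. The libraries differed in more than the clock. Leukocyte markers were lower in mammospheres for 11 of 11 genes, their summed level going from 399 FPKM in the bulk library to 0.704 FPKM, with Tyrobp, Fcer1g and Cd3e listed at 0, and fibroblast markers for 7 of 8 counted genes, from a sum of 320 FPKM to 1.04 FPKM, with Lum and Thy1 listed at 0. Of 5 endothelial markers 2 were counted, both lower (sum 6.17 and 0.24 FPKM). Of the epithelial markers 4 of 5 counted genes were lower (sum 926 and 63.5 FPKM), and the epithelial adhesion genes Epcam and Cdh1 stood at no more than 1.06 FPKM in any library. The luminal keratin Krt18 was at 570 FPKM in the bulk library, 58.2 in mammospheres, 261 in control hairpin cells and 256 in Cbx8 hairpin cells. The luminal keratin Krt8 was at 334, 5.14, 63.2 and 79.3 FPKM in the same order. Among the hairpin data 10 of 11 leukocyte, 6 of 9 fibroblast and 5 of 5 endothelial markers have no row. The keratin gene Krt14, a basal marker, was at 18.8 FPKM in the bulk library and 0.0534 FPKM in mammospheres. It was at 1.09 FPKM with the control hairpin and 10.5 FPKM with the Cbx8 hairpin (log2 change 2.46). The fibroblast collagen gene Col3a1 was at 2.33 and 0.675 FPKM in those hairpin libraries (log2 change −0.99). In bulk RNA fewer cells of a type and less RNA per cell cannot be told apart, and the part of these cells in the clock values was not tested. The targeted gene Cbx8 was at 4.74 FPKM with the control hairpin and 1.23 FPKM with its own.

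In mammospheres 5 of the 10 clock genes were at least 2-fold lower than in bulk cells and 0 were 2-fold higher. The 5 were Per1, Per2, Nr1d1, Nr1d2 and Dbp, which are 5 of the 8 members known as targets of the ARNTL and CLOCK pair. The other 3 targets, Per3, Cry1 and Cry2, did not reach 2-fold, and Arntl itself was the single member with a positive change. The changes of 9 of the 10 genes were thus negative, beside 65.3% of all counted rows. Of all 11603 rows counted the same way, 17.3% were at least 2-fold lower and 3.54% at least 2-fold higher, and among rows whose higher library was at 2 to 40 FPKM, the range of these genes, 15.3% were lower and 3.68% higher. The median log2 change of the 10 genes was −1.05, against −0.24 over all counted rows. With fold changes centred on the median of rows expressed in both libraries, a shift of 0.19, the same 5 genes were lower, and so they were with upper quartiles set equal. Those scalings moved the higher share of all 2-fold calls from 17.0% to 29.7% and 34.5%. The authors' test status was OK for 2 of the 10 rows, Per1 and Nr1d1, and the other 8 were not tested by them. Both tested genes were lower with a q under 0.05 in the authors' deposited table, as were 10.2% of its tested rows, with 1.73% higher.

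**Figure D1:**
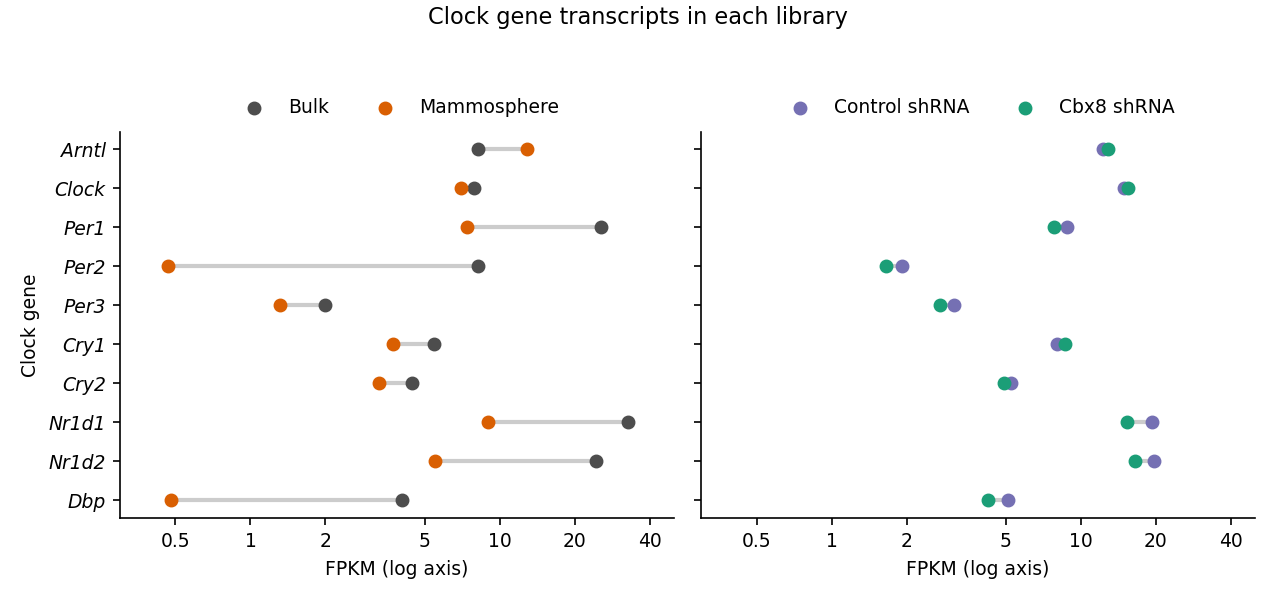
FPKM (log axis) of the 10 clock genes in the bulk and mammosphere libraries (left) and in the control and Cbx8 hairpin libraries (right), 1 point for each library, with a grey line joining the 2 libraries of a table. Per2 has the longest line on the left, from 8.21 to 0.468 FPKM, Arntl is the only gene whose mammosphere point lies to the right of its bulk point, and all lines on the right are short.

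Among the activators, Arntl (chromosome 7, 120350978 to 120457640, in mm9 as for all loci that follow) measured 8.16 FPKM in the bulk library and 12.8 FPKM in the mammosphere library, 1.57-fold higher as a plain ratio (log2 change 0.60). It was above 90.3% of all counted rows in that comparison, although it did not reach 2-fold. Clock (chromosome 5, 76641201 to 76733573), the partner that carries histone acetyltransferase activity, was at 7.87 and 7.01 FPKM. Its log2 change of −0.15 turned to 0.0392 after centring and 0.14 with equal upper quartiles, so no direction is given for it.

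The 3 Period genes, which encode the PAS-domain repressors of the loop, did not move alike. Per1 (chromosome 11, 68912457 to 68923459) was at 25.4 FPKM in the bulk library and 7.36 FPKM in the mammosphere library, a log2 change of −1.66, with q = 5.13e-07 in the authors' deposited table. Per2 (chromosome 1, 93312558 to 93355905) was at 8.21 and 0.468 FPKM, a log2 change of −2.65 and 17.6-fold as a plain ratio, the largest decrease of the 10 genes on either scale. The authors' deposited table lists p = 3.61e-08 for Per2 beside a status of not tested and a q of 1, so their own call did not include it. Per3 (chromosome 4, 150377763 to 150418731), the family member least needed for rhythm in mice, was at 2.00 and 1.32 FPKM, a log2 change of −0.37. The bulk library was thus the higher for all 3 genes, but only Per1 and Per2 passed 2-fold.

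The cryptochromes, the repressors that partner PER proteins, lay close to the average row. Cry1 (chromosome 10, 84594444 to 84647799) was at 5.45 FPKM in the bulk library and 3.74 FPKM in the mammosphere library. Cry2 (chromosome 2, 92243803 to 92274226) was at 4.47 and 3.27 FPKM, in a locus that it shares with the row D930015M05Rik, which was at 0.277 and 0.112 FPKM. Their log2 changes of −0.44 and −0.36 compare with −0.24 for the median of all counted rows, and 37.9% and 42.9% of rows had a lower change.

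The REV-ERB receptors, repressors of Arntl, were both lower in mammospheres. Nr1d1 (chromosome 11, 98629248 to 98636556) had the highest level of the 10 genes in bulk cells, 32.6 FPKM, and was at 8.99 FPKM in the mammosphere library, a log2 change of −1.75, with q = 0.00973 in the authors' deposited table. Its neighbour Thra, a thyroid hormone receptor gene known to have a transcript that overlaps Nr1d1, was at 30.7 and 29.9 FPKM, and the rows of the 2 genes do not overlap in the tables. Nr1d2 (chromosome 14, 19036569 to 19071620) was at 24.3 and 5.49 FPKM, a log2 change of −1.96, and was not tested by the authors. Of all counted rows 7.39% had a lower change than Nr1d1 and 5.78% a lower change than Nr1d2.

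Dbp, the transcription factor that carries clock output to D-box genes, was at 4.05 FPKM in the bulk library and 0.479 FPKM in the mammosphere library, a log2 change of −1.77 and 8.44-fold as a plain ratio. With 5 FPKM added in place of 1, its log2 change was −0.72 and it no longer passed 2-fold. The row gives the locus as chromosome 7, 52960616 to 52973372, which is the same locus as that of Sphk2, a sphingosine kinase gene at 11.2 and 13.5 FPKM. How reads were divided between Dbp and Sphk2 was not given in the sources used here, and the 2 rows moved in opposite directions.

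**Figure D2:**
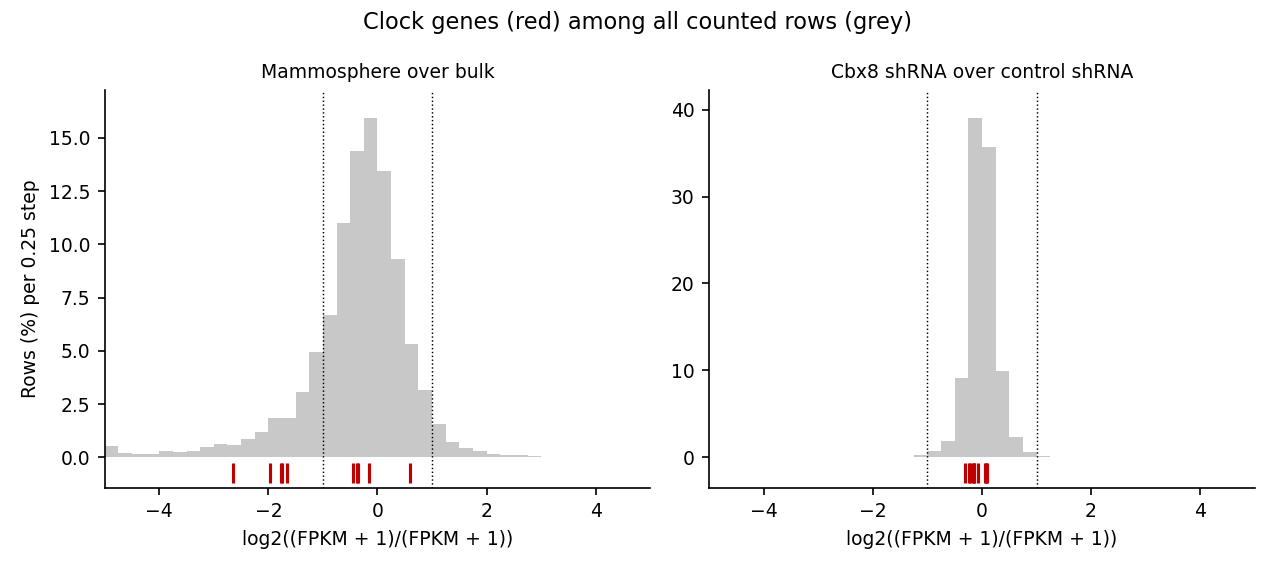
Share of counted rows (%) in steps of 0.25 of the log2 fold change (grey bars, the outermost bars also holding values beyond 5) for mammosphere over bulk (left, 11603 rows) and Cbx8 hairpin over control hairpin (right, 10670 rows), with each clock gene as a red tick and dotted lines at 2-fold. On the left 5 ticks lie below the lower dotted line, 4 near the middle and 1 (Arntl) on the positive side. On the right all 10 ticks lie within 0.32 of zero.

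In the Cbx8 hairpin library none of the 10 clock genes differed from the control library by 2-fold, in a comparison where 0.394% of 10670 counted rows were at least 2-fold lower and 0.262% at least 2-fold higher. Among rows at 2 to 40 FPKM the shares were 0.464% and 0.273%. At such shares a count of 0 among 10 genes says nothing particular about the clock. With the limit lowered to 1.5-fold the count was still 0, and in the authors' deposited table none (0 of 10) had a q under 0.05, where 0.077% of rows were lower and 0.128% higher at that q. The targeted gene Cbx8 did not pass that q either, so not passing it does not show that a gene was unchanged. The changes of the clock genes ran from −0.32 to 0.09 on the log2 scale with a median of −0.14, where the median of all counted rows was −0.006. Of the 10 genes 7 had negative changes, beside 51.2% of all counted rows.

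The largest of these small changes was that of Nr1d1, at 19.3 FPKM with the control hairpin and 15.3 FPKM with the Cbx8 hairpin (log2 change −0.32), and 8.06% of counted rows had a lower change. Its neighbour Thra was at 16.6 and 11.3 FPKM. Nr1d2 was at 19.6 and 16.6 FPKM (log2 change −0.23). As plain ratios the receptors were 1.26-fold and 1.18-fold lower in the Cbx8 hairpin library. Dbp was at 5.09 and 4.23 FPKM (log2 change −0.22), while Sphk2 at the same locus was at 17.6 and 19.0 FPKM.

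The Period genes had nearly equal changes there. Per1 was at 8.84 FPKM with the control hairpin and 7.84 FPKM with the Cbx8 hairpin, Per2 at 1.93 and 1.66 FPKM, and Per3 at 3.11 and 2.72 FPKM. Their log2 changes were −0.15, −0.14 and −0.14, so that all 3 were slightly lower in the Cbx8 hairpin library. Cry2 was at 5.23 and 4.91 FPKM and Cry1 at 8.06 and 8.64 FPKM. Arntl was at 12.3 and 12.9 FPKM and Clock at 14.9 and 15.5 FPKM. Cry1, Arntl and Clock were the 3 members with positive changes, of 0.09, 0.07 and 0.05, and the signs of all 10 genes were the same after centring and with equal upper quartiles.

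Set side by side, 8 of the 10 clock genes had the same sign in both comparisons, which share no library. Over 10376 rows counted in both, 41.6% had the same sign. The 7 genes Per1, Per2, Per3, Cry2, Nr1d1, Nr1d2 and Dbp were negative in both and Arntl was positive in both, whereas Cry1 and Clock differed in sign. Clock is the member whose sign in mammospheres depends on scaling: after centring, or with equal upper quartiles, it was positive in both comparisons and the count was 9 of 10, beside 40.7% and 39.3% of all rows. In the Cbx8 comparison these signs rest on changes of 0.32 or less in log2 between single libraries, and the spread between cultures that they would have to exceed was not measured. The genes outside the clock whose pair of log2 changes lay closest to the members' median pair (−1.05 and −0.14, over 2 comparisons and 4 libraries) were Psenen, Slc40a1 and Pion, at Euclidean distances of 0.0099, 0.012 and 0.014. No member had a mammosphere change between −1.66 (Per1) and −0.44 (Cry1). These genes therefore lie near a midpoint and not near any clock gene.

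The order of levels within a library does not depend on how the library was scaled. In bulk cells Nr1d1, Per1 and Nr1d2 were the 3 highest of the 10 genes (32.6, 25.4 and 24.3 FPKM) and Per3 the lowest (2.00 FPKM). In mammospheres Arntl was the highest (12.8 FPKM), followed by Nr1d1 (8.99 FPKM) and Per1 (7.36 FPKM), and Per2 moved from rank 4 in bulk cells to rank 10. With the control hairpin the order began with Nr1d2, Nr1d1 and Clock, and with the Cbx8 hairpin with Nr1d2, Clock and Nr1d1. Per2 was the lowest of the 10 in both hairpin libraries. Neighbours in these orders, such as Nr1d1 and Nr1d2 with the control hairpin (19.3 and 19.6 FPKM), cannot be separated without replicates.

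Ratios of 2 genes within a library are likewise free of its scaling. The ratio of Arntl to its repressor Nr1d1 was 0.25 in bulk cells and 1.43 in mammospheres, and 0.638 and 0.845 with the control and Cbx8 hairpins. The ratio of Arntl to Per2 was 0.993 in bulk cells and 27.5 in mammospheres, and 6.39 and 7.80 in the hairpin libraries. The value of 27.5 rests on Per2 at 0.468 FPKM in 1 library, and these ratios have no FPKM added, so its size is uncertain. Arntl thus stood higher against these repressors in mammospheres than in bulk cells whatever the scaling. Of the 8 ratios computed, that of Cry1 to Cry2 differed least between those libraries, going from 1.22 in bulk cells to 1.14 in mammospheres. It was 1.54 with the control hairpin and 1.76 with the Cbx8 hairpin.

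**Figure D3:**
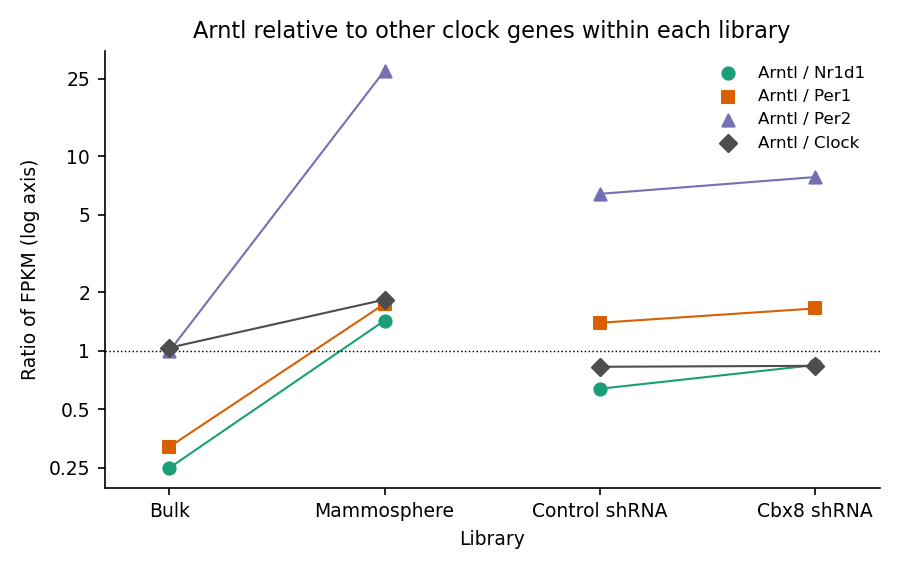
Ratio of Arntl FPKM to that of Nr1d1, Per1, Per2 and Clock within each library (log axis), 1 point for each library, with lines joining the 2 libraries of a table and a dotted line at equal levels. The Arntl to Per2 ratio has the steepest line, from 0.993 to 27.5, the latter with Per2 at only 0.468 FPKM. The ratios to Nr1d1, Per1 and Per2 cross the dotted line between bulk cells and mammospheres.

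A wider list of 26 clock-pathway genes was read by the same rule. All 26 had a row in the first table and 22 were counted, of which 7 were at least 2-fold lower in mammospheres and 0 higher (median −0.42, beside 17.3% of all rows lower and a median of −0.24). Bhlhe40, a repressor that competes with the ARNTL and CLOCK pair at E-boxes, was at 128 FPKM in the bulk library and 8.02 FPKM in the mammosphere library (log2 change −3.84), at a locus that overlaps the row 0610040F04Rik. Id2, an inhibitor of helix-loop-helix factors that can bind the same pair, was at 35.8 and 0.969 FPKM. Both were thus among the repressive partners, the group in which 2 of 7 genes were lower. The other 5 of that group, Bhlhe41, Ciart (listed under its older symbol Gm129), Timeless, Nono and Wdr5, did not reach 2-fold.

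In the family of Dbp, the related activator Tef was at 14.1 FPKM in the bulk library and 4.48 FPKM in the mammosphere library. Nfil3, which opposes DBP at D-boxes, was at 50.2 and 6.60 FPKM. Activator and opposing factor were therefore both lower, and Hlf, the third PAR factor, was below 1 FPKM in both libraries. Among the 8 kinases and ubiquitin pathway enzymes that set the stability of PER and CRY, Usp2, a deubiquitinase, was at 3.91 and 0.183 FPKM and was the only one past 2-fold. The casein kinase genes Csnk1d (86.3 and 46.4 FPKM) and Csnk1e (37.4 and 27.0 FPKM), whose products phosphorylate PER proteins, did not reach it. Of the 3 output genes, Noct (listed as Ccrn4l), whose product is known as the rhythmic protein nocturnin, was at 41.6 and 6.41 FPKM, and Wee1 and Nampt did not reach 2-fold.

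The alternative activators were close to absence. Arntl2, a paralogue of Arntl, was at 1.10 FPKM in the bulk library and listed at 0 in mammospheres, and its 2-fold call was lost after centring. Npas2, which can stand in for Clock, was below 1 FPKM in both libraries. Among the hairpin data 20 of the 26 genes had a row and 19 were counted, with 0 past 2-fold in either direction (beside 0.394% and 0.262% of all rows), 11 negative and 8 positive. Of the 7 genes lower in mammospheres, Arntl2 has no row there and Usp2 stayed below 1 FPKM. Bhlhe40 had the largest change of the other 5, from 18.3 FPKM with the control hairpin to 24.1 FPKM with the Cbx8 hairpin (log2 change 0.38), opposite in sign to its mammosphere value. Wdr5, which the series title pairs with Cbx8 and whose product is known as a component of PER protein complexes, was at 36.4 FPKM in the bulk library, 43.0 in mammospheres, 73.2 with the control hairpin and 61.8 with the Cbx8 hairpin.

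**Figure D4:**
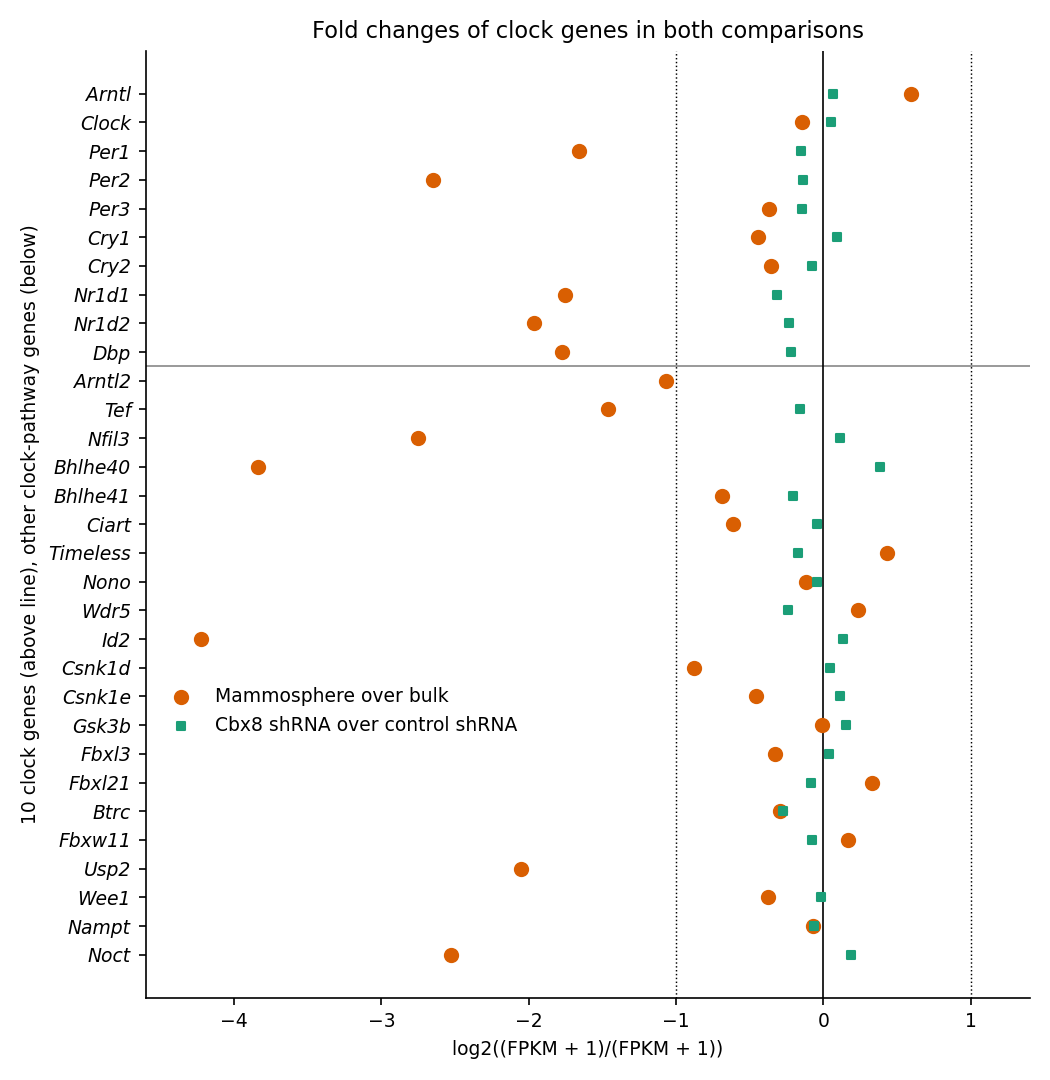
Log2 fold changes (horizontal axis) of the 10 clock genes, above the line, and of other clock-pathway genes counted in at least 1 table, below it, for mammosphere over bulk (orange circles) and Cbx8 hairpin over control hairpin (green squares), with dotted lines at 2-fold. The circles of 5 clock genes and 7 others lie below −1, and all squares lie between −0.32 and 0.38.

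Several clock genes share their response to serum with the immediate early genes, and that class was read beside them. All 8 early genes listed (Fos, Fosb, Junb, Egr1, Ier2, Nr4a1, Atf3 and Dusp1) were at least 2-fold lower in mammospheres than in bulk cells, by a median log2 change of −5.59, where 17.3% of all rows were lower. Their summed level was 4305 FPKM in the bulk library and 119 FPKM in the mammosphere library. The bulk medium held serum and the mammosphere medium, as described, held none, and the cell type markers differed as given above. Medium, attachment, time in culture, cell types present and library therefore cannot be told apart here. Between the hairpin libraries 0 of the 8 passed 2-fold, their sum being 226 FPKM with the control and 205 FPKM with the Cbx8 hairpin, with Nr4a1 farthest from no change at 15.5 and 8.22 FPKM. The part of early gene induction in the Per1, Per2, Nr1d1, Nr1d2 and Dbp values was not tested.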

How the data were processed

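Polyadenylated RNA of 4 libraries was sequenced single-end, per the labels' protocols. The submitters' processing notes name FastQC 0.10.0, TopHat 1.4.0, Cufflinks 1.3.0, Cuffdiff (version listed as 0.0.7) and build mm9, while annotation, settings and strand use were not given in the sources used here, nor was the handling of reads with several matches. The authors deposited 2 Cuffdiff tables with FPKM per gene and library, and with their p-value and q-value per row. Depth is unknown: the tables hold no counts, and the ratios of weak rows did not gather at whole-read steps.

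From these values log2 ratios with 1 FPKM added were computed within each table (Python 3.11.15, pandas 2.3.3), after leaving out 32 rows of failed or excessive status in the first table, and 15 rows without a statistic and 2 summary rows naming no gene in the second. Rows that the authors did not test were kept for members and background alike. The counting step was tested on simulated data. With 1 library in a group no test was run, and the authors' q is quoted as theirs. All 10 members are named, with those of the other clock genes that passed 2-fold, Wdr5, 8 early genes and Cbx8. Rows beside these were named after their values were seen. The members and lists were chosen with earlier results of these data known. Some genes of the wider list enter its counts but are not reported here one by one. Alternatives covered the pseudocount, fold limit, FPKM minimum, scaling, row status, summed rows and the authors' q.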

Additional observations from a re-analysis of the deposited data

How the results depend on the processing

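Depth is unknown and no group has a replicate, so no value here has an error, and genes near 1 FPKM, such as Per2 and Dbp in mammospheres, are the least certain. The 5 of 10 clock genes called in mammospheres became 1 of 10 with a 4-fold limit (Per2), beside 6.07% of all counted rows. With only rows tested by the authors they were 2 of 2 (Per1 and Nr1d1), beside 19.9% of such rows. By the authors' q under 0.05 they were the same 2 of 10, beside 4.15% of all counted rows. The other alternatives gave 4 to 6 genes. The 6 at 1.5-fold were 5 lower and 1 higher, beside 40.6% of all counted rows. These shares count both directions. The 7 of 22 other clock genes became 4 of 10 with only tested rows and 4 of 22 by the authors' q, beside the same shares. In the Cbx8 comparison the count was 0 for both lists under every alternative run. Clock turned from −0.15 to 0.0392 after centring and 0.14 with equal upper quartiles, and no other member changed sign under the pseudocounts, scalings or summed rows. Over all rows, the 2413 calls in mammospheres became 1103 with 5 FPKM added, 4711 at 1.5-fold, 704 at 4-fold, 805 in tested rows and 481 by the authors' q. The 70 calls of the Cbx8 comparison became 190 with 0.1 FPKM added, 22 with 5 FPKM, 446 at 1.5-fold, 8 at 4-fold and 24 by the authors' q. No replicate could be left out.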

Other observations

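Levels can also be read across the tables, which were normalised separately, so that only gaps far wider than a scaling difference are worth a look. The early gene Fos was at 799 FPKM in the bulk library, 10.5 in mammospheres, 3.13 with the control hairpin and 3.43 with the Cbx8 hairpin. Per2 was at 8.21, 0.468, 1.93 and 1.66 FPKM in the same order, and Per1 at 25.4, 7.36, 8.84 and 7.84 FPKM. In these units Fos was lowest in the hairpin libraries, and Per2 in mammospheres. Dbp was at 4.05 FPKM in the bulk library and 0.479 in mammospheres and at 5.09 and 4.23 FPKM in the hairpin libraries. Nr1d2 was at 24.3, 5.49, 19.6 and 16.6 FPKM. Per2, Nr1d2 and Dbp were thus lowest in mammospheres among the 4 libraries, but this was not particular to them. Cry1 (5.45, 3.74, 8.06 and 8.64 FPKM in the same order) was lowest there too, as were Per3, Cry2 and Nr1d1. Clock was at 7.87, 7.01, 14.9 and 15.5 FPKM. Its direction between bulk cells and mammospheres depended on scaling, so no lowest library is given for it. Arntl was not lowest in mammospheres, and Per1 in mammospheres was too close to its level in the hairpin libraries to be ordered. The part of a scaling difference between the tables in these gaps was not tested. The summed level of the 10 clock genes was 123, 51.0, 98.4 and 90.3 FPKM.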
